A study of Mus musculus with 4 samples.

Results

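Kupffer cells are the resident macrophages of the liver, and their marker genes were followed in livers of vitamin C-treated and untreated Wrn mutant mice. The set held 9 genes: Clec4f, Cd5l, Vsig4, Marco, Cd68, Csf1r, C1qa, C1qb and C1qc. They were chosen as known genes of resident liver macrophages and found on the array through the RefSeq accession of each probe. Of the 9 genes, 8 were measured, by 10 probes out of 41174, and 31073 genes or accessions were tested in all. Cd68, a lysosomal glycoprotein gene of macrophages, was not analysed here: none of the accessions that the RefSeq table lists for it was among those of the probes. That table does not list every accession on the array, so this does not show that the array lacks a Cd68 probe.

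The treated mice were 3-month-old C57Bl/6 Wrn mutant males that had drunk water with 0.4% vitamin C since weaning. The untreated mice were Wrn mutant males of the same strain and age without vitamin C. Every liver thus came from a Wrn mutant, and no liver with normal Wrn was compared. The labels name no allele. Each of 4 arrays of an Agilent 2-colour mouse design held RNA of 1 treated liver in the Cy3 channel and 1 untreated liver in the Cy5 channel, and the labels call the 4 pairs biological replicates. The dyes ran the same way on all 4 arrays, so that what a dye does to a spot and what vitamin C does to a gene cannot be told apart. The direction of every ratio rests on the labels of the 2 channels, which give Cy3 to the treated liver. The sample titles also name the treated liver first, but the authors' deposited log2 table follows Cy5 over Cy3. If that table were read in the order of the titles, or the channel labels were crossed, every sign given here would turn, and so would every statement of higher or lower.

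Kupffer cells line the blood sinusoids, where they take up bacteria, aged red cells and complement-coated particles. They depend on signalling through the CSF1 receptor, and in mice they are recognised by the lectin Clec4f. The whole liver was extracted, so fewer Kupffer cells and less RNA per Kupffer cell cannot be told apart in these values.

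Ratios are given as log2 of the treated over the untreated liver of a pair, with 0 for no difference, and levels as the normalized log2 intensity of a single liver. The median spot had an intensity of 380 to 530 in the treated (Cy3) channel, with 62 to 67 for negative controls. In the untreated (Cy5) channel it had 813 to 962, with 66 to 80 for negative controls. All 8 measured members were well above background in both channels on all 4 arrays. So were the macrophage genes Adgre1, Timd4 and Clec1b, and the hepatocyte gene Alb. No spot on any array was saturated.

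None of the macrophage genes passed the test of treated against untreated livers, but their ratios were lowest on the same pair of livers. Of the 8 measured members, 0 had an adjusted p under 0.05 (limma over all genes, Benjamini-Hochberg), and 0% of the 31073 genes did. At an unadjusted p under 0.05, 2 members were higher (C1qa and C1qb) and 0 lower, beside 11.1% of all genes higher and 16.5% lower. The mean ratio was above 0 for 7 members and below 0 for 1, Csf1r. The median of the 8 means was 0.22, against -0.015 over all genes. Leaving out replicate 2 gave 0.087, leaving out replicate 4 gave 0.093 and leaving out replicate 1 gave 0.41. Median centring in place of loess gave 0.084.

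**Figure D1:**
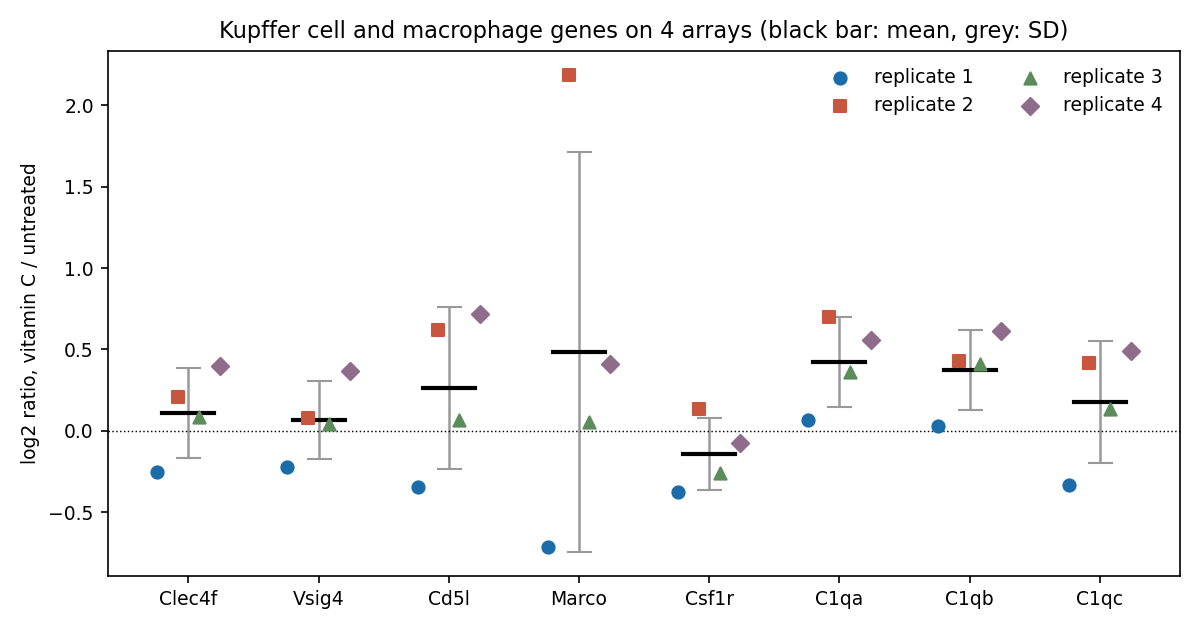
Log2 ratio of vitamin C over untreated (y axis) for the 8 measured macrophage genes, with 1 symbol per array, the mean as a black bar and the SD in grey. Replicate 1 is the lowest point of all 8 genes, and Marco on replicate 2 stands at 2.19.

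Replicate 1 had the lowest ratio of its 4 arrays for 8 of 8 members, a position it held for 15.1% of all genes. In lists described below it was also lowest for 7 of 11 genes of CSF1 receptor signalling and 6 of 11 of T and NK cells. It was lowest for 3 of 13 monocyte genes and 1 of 12 sinusoidal endothelial genes. The members' medians were -0.29, 0.42, 0.076 and 0.45 on replicates 1 to 4, with 2, 8, 7 and 7 members above 0. The medians of 6302 genes within the members' range of mean intensity lay between -0.0046 and 0.010 on these arrays. In 5 members, Clec4f, Cd5l, Vsig4, C1qb and C1qc, the arrays stood in 1 order, with replicate 1 lowest, then 3, then 2, and replicate 4 highest. This order was found in 2.44% of all genes. The other 3, Csf1r, Marco and C1qa, had replicate 2 highest. The median SD of the members over the arrays was 0.28, against 0.13 over all genes, and all 8 members lay above 0.13.

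The levels of single livers were ranked beside the ratios. Both livers of a pair were read from the same spot, so the brightness of that spot enters both levels. A low ratio also sets the treated level below the untreated one. Which liver of a pair lay apart thus cannot be told from these ranks alone. Among the 4 treated livers, replicate 1 was the lowest for 7 of 8 members and replicate 4 the highest for 5. Among the 4 untreated livers, replicate 2 was the lowest for 7 of 8 members and replicate 3 the highest for 5. The low ratios of replicate 1 thus went with the lowest treated liver in 7 of 8 members, and for C1qa and C1qb also with the highest untreated liver. For Vsig4 the treated liver of replicate 2 was slightly lower. The positive ratios of replicate 2 went with the lowest untreated liver in 7 of 8 members, and for Marco also with a high treated one. C1qb had its lowest untreated liver on replicate 4, and untreated Csf1r was nearly the same on replicates 1 and 2.

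**Figure D2:**
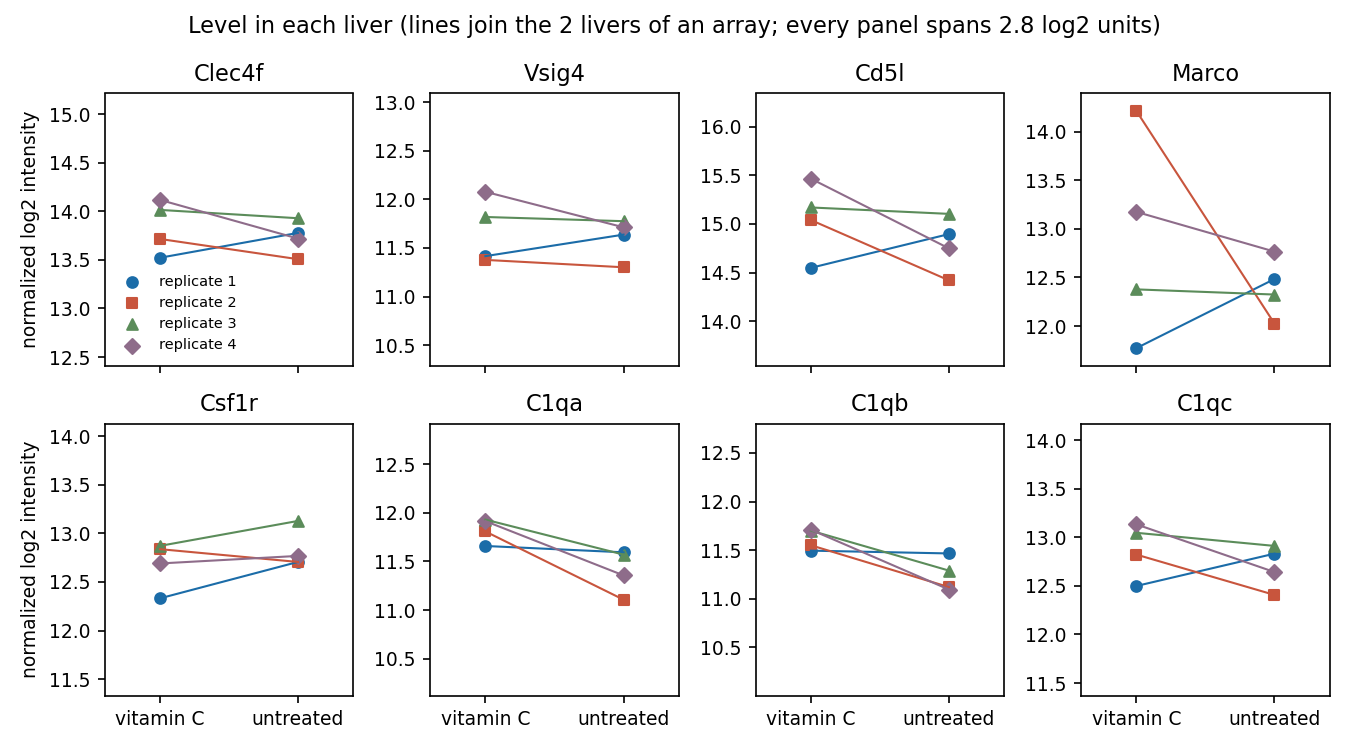
Normalized log2 intensity of each macrophage gene in each liver (y axis), with vitamin C-treated livers left of untreated livers and a line joining the pair on 1 array. C1qa and C1qb lie higher in all 4 treated livers than in any untreated liver, and the other 6 genes overlap.

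Clec4f encodes a C-type lectin of mouse Kupffer cells. Its levels were 13.52, 13.72, 14.01 and 14.12 in treated livers of replicates 1 to 4, against 13.78, 13.51, 13.93 and 13.72 in the untreated livers. The treated livers of replicates 3 and 4 lay above every untreated liver, and the other 2 lay among them. The log2 ratio was 0.11 ± 0.28 (SD, n = 4; 95% interval -0.16 to 0.38) and did not pass (adjusted p = 0.523, limma). It was 0.23 with replicate 1 left out and 0.013 with replicate 4 left out, and median centring without loess gave -0.0068.

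Vsig4 encodes a complement receptor with which Kupffer cells bind particles coated with C3 fragments. It had levels of 11.42, 11.38, 11.82 and 12.08 in treated livers, against 11.64, 11.30, 11.78 and 11.71 in untreated livers. The treated livers of replicates 3 and 4 lay above every untreated one, replicate 3 by a small margin, and the groups overlapped. The log2 ratio was 0.066 ± 0.24 (SD, n = 4; adjusted p = 0.669, limma), -0.034 without replicate 4 and -0.082 without loess.

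Cd5l encodes a secreted protein of macrophages from the scavenger receptor cysteine-rich family. Its levels were 14.55, 15.04, 15.17 and 15.47 in treated livers, against 14.90, 14.42, 15.10 and 14.75 in untreated livers. The treated livers held both the highest value and, for replicate 1, one of the lower values of the 8. The log2 ratios of -0.35, 0.62, 0.066 and 0.72 averaged 0.26 ± 0.50 (SD, n = 4; adjusted p = 0.371, limma). This SD was larger than that of 97.9% of all genes. It averaged 0.15 with replicate 2 left out, 0.11 with replicate 4 left out and 0.47 with replicate 1 left out.

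Marco, a class A scavenger receptor gene for bacteria and particles, differed most between arrays. Its levels were 11.77, 14.21, 12.38 and 13.17 in treated livers, against 12.48, 12.02, 12.32 and 12.77 in untreated livers. The treated liver of replicate 2 stood above all the others, and that of replicate 1 was the lowest of the 8. The log2 ratios were -0.71, 2.19, 0.053 and 0.41, with a mean of 0.48 ± 1.23 (SD, n = 4; adjusted p = 0.491, limma), and -0.083 without replicate 2. On replicate 2 the treated liver had 4.56 times the level of the untreated one, the highest ratio of all 31073 genes on that array. This rank was looked up after the value had been seen. The raw median signals of that spot were 12449 in Cy3 (treated) and 5772 in Cy5 (untreated), the only array of the 4 on which Cy3 was the brighter channel for Marco. Marco has 1 spot per array, and it carried no outlier mark on any of them. In the authors' deposited table, which runs as untreated over treated by the channel labels, Marco had -2.20 on this array. Read in the order of the titles, that value would place Marco lower in the treated liver, and with crossed channels the ratio of 2.19 would be the lowest of all genes on this array in place of the highest. Relative to the median of the other 7 members, Marco was higher by 1.77 on replicate 2 and stood at -0.46, -0.033 and -0.082 on replicates 1, 3 and 4.

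Csf1r encodes the receptor for the cytokines of the Csf1 and Il34 genes, on which macrophages depend for survival. It was measured by 3 probes, which disagreed. The brightest probe, taken for the gene, had levels of 12.33, 12.84, 12.87 and 12.69 in treated livers, against 12.71, 12.71, 13.13 and 12.77 in untreated livers, and the groups overlapped. Its log2 ratio was -0.14 ± 0.22 (SD, n = 4; adjusted p = 0.323, limma), below 0 on 3 of 4 arrays. It was -0.24 with replicate 2 left out, -0.068 with replicate 1 left out, and -0.27 both with median centring and with Agilent's processed signals, and passed in none of these. In a fit over 39328 probes, where 0% passed, the second probe had 0.10 ± 0.18 (adjusted p = 0.408, limma). The dimmest probe had 0.24 ± 0.14 in the same limma fit (adjusted p = 0.143) and was above 0 on all 4 arrays. The mean over the 3 probes was 0.064, so that the sign for Csf1r depended on the probe. Why the probes differ was not tested.

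**Figure D3:**
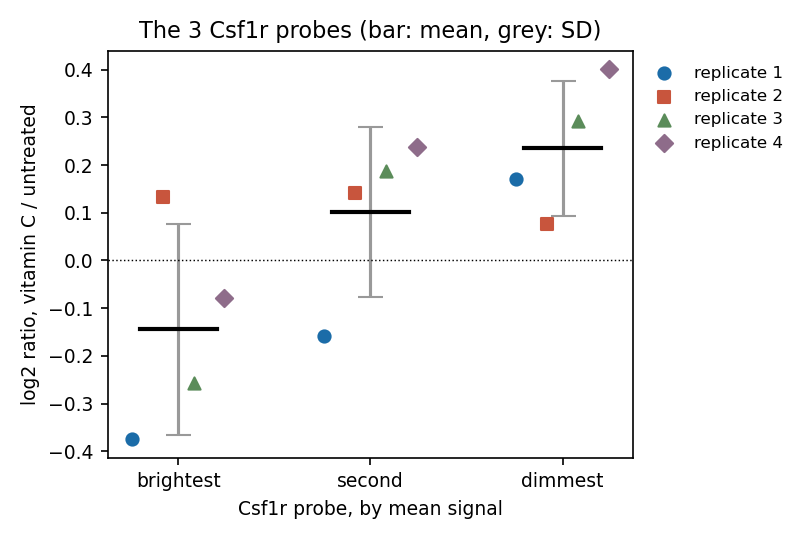
Log2 ratio of vitamin C over untreated (y axis) for the 3 Csf1r probes in order of mean signal, with 1 symbol per array, the mean as a black bar and the SD in grey. The brightest probe averages -0.14 and the dimmest 0.24.

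C1qa, C1qb and C1qc encode the A, B and C chains of C1q, the part of the first complement component that recognises antibodies and dying cells, and macrophages are a main source of it. The 3 genes are neighbours on chromosome 4 in the RefSeq table of GRCm38.p6. C1qa had levels of 11.66, 11.81, 11.93 and 11.91 in treated livers, against 11.59, 11.11, 11.57 and 11.36 in untreated livers. C1qb had 11.50, 11.55, 11.70 and 11.71 in treated livers, against 11.47, 11.12, 11.29 and 11.09 in untreated livers. For both genes the lowest treated liver, replicate 1, lay just above the highest untreated liver, which was its own partner. Levels did not overlap in these 2 of 8 members, with treated above untreated, as in 4.52% of all genes. The opposite was seen in 0 of 8 members and in 2.54% of all genes.

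C1qc had levels of 12.50, 12.82, 13.05 and 13.13 in treated livers, against 12.83, 12.41, 12.91 and 12.64 in untreated livers, which overlapped. The log2 ratio was 0.42 ± 0.28 for C1qa (SD, n = 4; 95% interval 0.15 to 0.69), a fold of 1.34, above 0 on all 4 arrays. C1qb had 0.37 ± 0.25 (95% interval 0.13 to 0.62), a fold of 1.29, also above 0 on all 4. C1qc had 0.18 ± 0.37 (95% interval -0.17 to 0.53), above 0 on 3. For C1qc, leaving out replicate 1 gave 0.35, leaving out replicate 2 gave 0.098, leaving out replicate 4 gave 0.072, and median centring gave 0.058. Median centring gave 0.27 for C1qa and 0.22 for C1qb. Ratios above 0 on all 4 arrays were found in these 2 of 8 members and in 14.9% of all genes. Ratios below 0 on all 4 were found in 0 of 8 members and in 16.1% of all genes. The adjusted p-values were 0.144, 0.144 and 0.428 for C1qa, C1qb and C1qc (limma over all genes), and the intervals are not adjusted for the number of genes.

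C1qa and C1qb passed in 1 alternative, a fit of separate channels with the array as a random block (adjusted p = 0.0491 each, limma). In that fit 1.80% of all genes were called higher. The 3 chains did not differ alike: C1qa exceeded C1qc by 0.40, 0.29, 0.23 and 0.067 on replicates 1 to 4, and C1qb exceeded it by 0.36, 0.016, 0.28 and 0.12. C1qa minus C1qb was 0.036, 0.27, -0.051 and -0.058. With Agilent's processed signals the means were 0.27 for C1qa, 0.35 for C1qb and 0.27 for C1qc. C1qa and C1qc were thus nearly the same there, unlike with loess.

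The promoters of C1qb and C1qc are shown because these neighbours kept the same order of arrays, and that of Marco because its ratio varied most. Each runs from 250 bases before to 50 bases after the RefSeq gene start, and capitals mark GAGGAA, the core of sites bound by the macrophage factor PU.1, on either strand (TTCCTC on the reverse).
C1qb (GRCm38.p6, chr4:136886151-136886450, minus strand): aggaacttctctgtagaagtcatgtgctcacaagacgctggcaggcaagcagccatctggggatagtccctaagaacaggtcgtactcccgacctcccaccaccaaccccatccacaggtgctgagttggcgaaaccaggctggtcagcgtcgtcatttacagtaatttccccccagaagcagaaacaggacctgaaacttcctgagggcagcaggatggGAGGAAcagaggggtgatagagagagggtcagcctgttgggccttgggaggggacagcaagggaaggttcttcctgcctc
C1qc (GRCm38.p6, chr4:136892865-136893164, minus strand): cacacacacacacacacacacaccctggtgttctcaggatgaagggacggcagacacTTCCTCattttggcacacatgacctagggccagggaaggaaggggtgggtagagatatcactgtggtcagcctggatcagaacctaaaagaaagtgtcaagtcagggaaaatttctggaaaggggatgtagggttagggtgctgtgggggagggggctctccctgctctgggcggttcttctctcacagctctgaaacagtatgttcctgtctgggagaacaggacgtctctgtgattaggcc
Marco (GRCm38.p6, chr1:120504975-120505274, minus strand): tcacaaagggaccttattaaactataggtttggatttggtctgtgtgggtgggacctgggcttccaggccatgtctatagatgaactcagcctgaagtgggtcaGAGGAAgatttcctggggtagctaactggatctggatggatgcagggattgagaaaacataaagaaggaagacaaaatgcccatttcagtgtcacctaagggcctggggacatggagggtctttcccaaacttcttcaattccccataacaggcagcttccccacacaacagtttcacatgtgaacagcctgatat

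Promoters of 7 members were examined, and 6 held GAGGAA on either strand, beside 28.3% of 32851 promoters of the same length. Those of C1qa and Csf1r were not examined. A filter by chromosome was applied to the members and not to the 32851, so the shares were not counted alike. Counted from the gene start, the match began at -146 in Marco, at -30 in C1qb and, on the reverse strand, at -193 in C1qc. Vsig4 and Cd68 held 2 each and Cd5l 1, while the Clec4f window held none. TATAAA was found in 0 of the 7 and in 13.6% of all promoters. These matches are letters in a window and were not tied to the ratios.

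A list of 30 further genes of Kupffer cells and tissue macrophages was measured in full. On this list 0 genes passed in either direction. The mean ratio was above 0 for 26 of 30, against 46.1% of all genes, and the median was 0.17. The medians by array were -0.13, 0.14, 0.20 and 0.49, with 6, 22, 24 and 26 genes above 0, and 20 of 30 genes had their lowest ratio on replicate 1. At an unadjusted p under 0.05, 9 of 30 were higher and 1 lower, beside 11.1% of all genes higher and 16.5% lower. The lower one was Trem2, a receptor of lipid-associated macrophages (-0.19 ± 0.18, SD, n = 4), named after its value had been seen.

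Adgre1, which encodes the macrophage antigen F4/80, had log2 ratios of -0.56, 0.28, 0.025 and 0.50 on replicates 1 to 4. Those arrays stood in the order of Clec4f and Cd5l, and the mean was 0.061 ± 0.45 (SD, n = 4), which did not pass. Timd4, a receptor for dying cells on long-lived Kupffer cells, had -0.067, 0.28, 0.26 and 0.49. Clec1b, a lectin of mouse Kupffer cells, had -0.14, 0.40, 0.42 and 0.58. Both were below 0 on replicate 1 alone, and neither passed (adjusted p = 0.172 and 0.171, limma).

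The 3 genes of this list with the smallest p were Cd14, Aif1 and Fcgr1. Cd14, a co-receptor for bacterial lipopolysaccharide, had 0.20 ± 0.15 (SD, n = 4) and was above 0 on all 4 arrays. Aif1, an actin-binding protein of macrophages, had 0.41 ± 0.40, and Fcgr1, a receptor for IgG, 0.39 ± 0.38, each above 0 on 3 arrays. Their adjusted p-values were 0.157 to 0.166 (limma). Lyz2, which encodes lysozyme of myeloid cells, had 0.086 ± 0.28 (adjusted p = 0.618, limma).

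Among 11 measured genes of CSF1 receptor signalling 0 passed, and the median was 0.011. The ligand gene Csf1 had 0.18, 0.040, 0.29 and 0.28 on replicates 1 to 4, above 0 on all 4 (adjusted p = 0.146, limma). The other ligand gene, Il34, had 0.23 ± 0.34 (SD, n = 4; adjusted p = 0.286, limma). Cbl, a ubiquitin ligase that acts on the activated receptor, had -0.42 ± 0.22 (adjusted p = 0.144, limma), below 0 on all 4, and the adaptor gene Dok2 had 0.24 ± 0.22. Each receptor ligand thus had a mean above 0 and the receptor's main probe a mean below 0, without any of them passing. The other 2 Csf1r probes had means above 0 (0.10 and 0.24), so this contrast depended on the probe.

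Macrophage transcription factors gave a median of 0.047 over 14 genes, and 0 passed. Spi1, which encodes PU.1, had 0.075 ± 0.031 (SD, n = 4; adjusted p = 0.292, limma), with 0.071, 0.12, 0.050 and 0.062 on the 4 arrays, so it lacked the low value on replicate 1. Spi1 was dim, with a mean log2 intensity of 8.36 against a median of 9.61 over all genes. Whether this shaped its ratios was not tested. The liver X receptor gene Nr1h3 had -0.054 ± 0.094, and its paralogue Nr1h2 0.26 ± 0.18. Spic, a factor of iron-recycling macrophages, had -0.12, 0.49, 0.48 and 1.31, and Tfec, a factor expressed in macrophages, had -0.36 ± 0.25.

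The list of 10 genes with the proteases that join C1q in the first complement component, and with partners and later steps, had a median of -0.086, and 0 passed. At an unadjusted p under 0.05, 2 were higher and 3 lower, beside 11.1% of all genes higher and 16.5% lower. On all 4 arrays 2 genes were above 0 and 3 below 0, beside 14.9% and 16.1% of all genes. No test of a difference from the C1q chains was run. C1ra had -0.26 ± 0.13 (SD, n = 4; adjusted p = 0.144, limma), below 0 on all 4 arrays, and C1s1 -0.10 ± 0.13 (adjusted p = 0.330, limma). C3, the central complement component, had -0.55 ± 0.29, and C4bp, a complement inhibitor, -0.44 ± 0.13, both below 0 on all 4 arrays. The 2 above 0 on all 4, C1qbp (0.19 ± 0.057) and Cd93 (0.39 ± 0.37), were named after their values had been seen. The 8 complement receptor genes had a median of -0.044 with 0 passing. The integrin gene Itgam, an alpha chain of complement receptors, had -0.31 ± 0.10, its beta partner Itgb2 0.23 ± 0.21, and the B cell complement receptor gene Cr2 -0.13 ± 0.071. Itgam was dim, with a mean log2 intensity of 7.31 against a median of 9.61 over all genes. It was still well above background in both channels on all 4 arrays.

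The genes whose 4 ratios lay closest to the members' array medians, by root mean square difference among 16851 named genes well above background, included Adgre4, Cfp, Wfdc17 and Slc39a4. Their differences were 0.052, 0.055, 0.069 and 0.095 on the log2 scale over 4 arrays. Among the members, C1qc had 0.041 and Clec4f 0.11, whereas Csf1r had 0.35 and Marco 0.91. Cfp, which encodes the complement protein properdin, had -0.28, 0.50, 0.076 and 0.53 on replicates 1 to 4. Adgre4, a receptor of the same family as Adgre1, had -0.32, 0.51, 0.12 and 0.46.

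Markers of other cells of the liver were set beside the members, and 0 genes of these lists passed. The 13 monocyte genes had array medians of 0.079, 0.069, 0.0066 and 0.026, without the low value of replicate 1. They were dimmer than the members, with a median log2 intensity of 8.95 against 12.70. Whether this shaped the contrast was not tested. At an unadjusted p under 0.05, 3 of the 13 genes were higher and 3 lower, beside 11.1% of all genes higher and 16.5% lower. The 3 with the smallest p were Itgam, below 0 on all 4 arrays as given above, and Plac8 (0.46 ± 0.28, SD, n = 4) and the chemokine receptor gene Ccr2 (0.36 ± 0.22), both above 0 on all 4. Ccr2 was dim as Itgam was, with a mean log2 intensity of 7.83. The other lower genes, Cx3cr1 (-0.23 ± 0.21) and Chil3 (-0.20 ± 0.18), were named after their values had been seen. Sinusoidal endothelial genes had array medians of 0.070, -0.15, 0.16 and 0.23, with Stab1 at 0.34 ± 0.31, Eng at 0.36 ± 0.30 and Ptprb at -0.41 ± 0.14. Replicate 2, where 8 of 8 macrophage members were above 0, had 3 of 12 endothelial genes above 0.

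Dendritic cell and MHC class II genes had array medians of 0.049, 0.090, 0.22 and 0.30. Cd74, the invariant chain gene, had 0.19, 0.30, 0.82 and 1.43 and was above 0 on all 4. H2-Aa averaged 0.60 ± 0.62 (SD, n = 4) and Ccr7 0.14 ± 0.056. Of 10 genes, 3 were higher and 1 lower at an unadjusted p under 0.05, beside 11.1% of all genes higher and 16.5% lower. The lower one, Xcr1 (-0.26 ± 0.26), was named after its value had been seen. T and NK cell genes had array medians of -0.0061, 0.068, 0.11 and 0.087, with Cd3d at 0.43 ± 0.26, Nkg7 at 0.60 ± 0.40 and Cd8a at -0.19 ± 0.14. Of 11 genes, 2 were higher and 2 lower at an unadjusted p under 0.05, beside the same shares of all genes. The other lower gene, Cd3e (-0.25 ± 0.22), was named after its value had been seen. It was brighter than Cd3d, with a mean log2 intensity of 13.65 against 8.70. B and plasma cell genes had a median of 0.075, with Cd79b at 0.62 ± 0.52 and Jchain at -0.42 ± 0.32.

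Neutrophil genes had a median of 0.065, stellate cell genes 0.088, cholangiocyte genes 0.0046 and erythroid genes 0.037. By array the erythroid medians were 0.26, -0.011, -0.21 and 0.052. On replicate 1, 7 of 7 erythroid genes were above 0 and 0 had their lowest ratio there. The 11 measured hepatocyte genes had a median of -0.26, and by array -0.079, -0.27, -0.16 and -0.28. Alb, the albumin gene, had -0.70 ± 0.25 (SD, n = 4) and Apob, an apolipoprotein gene, -1.71 ± 0.84. The mean was above 0 for 3 of the 11 genes, and at an unadjusted p under 0.05, 0 were higher and 5 lower. Over all genes 11.1% were higher and 16.5% lower. The hepatocyte median was nearest to 0 on replicate 1, the array with the lowest macrophage ratios, but single genes did not all follow it. Apob was lowest on replicate 1 (-2.77), as were 3 of the 11 genes with Apob counted. Alb was nearest to 0 on replicate 4 (-0.42). The part of other cell types in the macrophage values was not tested.

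**Figure D4:**
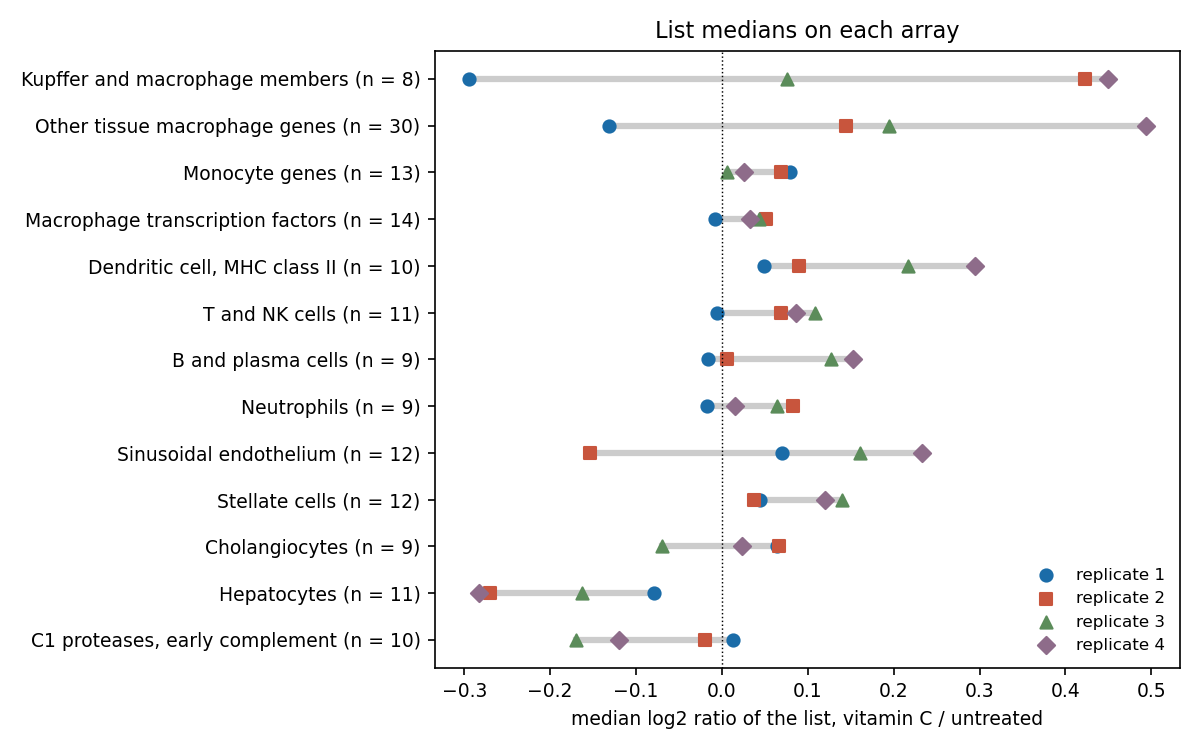
Median log2 ratio of vitamin C over untreated (x axis) of each gene list, with 1 symbol per array and a grey line over their range. The macrophage members run from -0.29 to 0.45 and the further tissue macrophage genes from -0.13 to 0.49, with replicate 1 lowest and replicate 4 highest in both.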

How the data were processed

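The authors deposited spot intensity values of 4 arrays. Per the file headers these came from Agilent Feature Extraction, version 10.5.1.1, as Cy3 and Cy5 median signals, median local backgrounds, processed signals and spot flags. The authors also deposited a table of log2 ratios; the submitters' processing notes list limma, and how the table was centred is not given in the sources used here. This table was compared with the log2 Cy5 to Cy3 ratio computed here, after background correction and loess. The correlation was 0.950 to 0.980 over 41174 probes, outlier spots left out. The deposited table thus runs as untreated over treated by the channel labels, although the titles name the treated liver first. Its column medians were 0.0014 to 0.0050. Ratios here follow the channel labels alone, treated over untreated.

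Ratios were computed with R 4.3.3 and limma 3.58.1: normexp on median signals with an offset of 50, loess within each array with control spots at weight 0, outlier spots left out and spots of 1 probe averaged. Levels of single livers are separate-channel values after Aquantile. Accessions were named through the RefSeq table of GRCm38.p6, in which 61.0% of probes matched 1 symbol. A gene was taken as its brightest probe and kept if 3 of 4 arrays showed it well above background in either channel. limma (lmFit, eBayes) tested the 4 ratios against 0. Its p-values were adjusted by Benjamini-Hochberg over all genes, and 0.05 was the threshold. The arrays lay on 1 slide. These steps were also tested on simulated data with known changes. The precision is limited by the number of arrays. Figures and promoters used Python 3.11.15.

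The members and lists were chosen with earlier results of these data known. All members were named, with up to 3 genes of smallest p per list, 10 further genes and the 5 genes most like the members, of which 1 is not reported here; Clec1b was added as a cell type marker. Alternatives covered the background, normalization, filter, probe choice, variance model, deposited table, separate channels and each array left out.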

Additional observations from a re-analysis of the deposited data

Results flagged for a closer look

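The level of Csf1r in untreated livers, by its brightest probe, was 13.13 in replicate 3 and 12.71, 12.71 and 12.77 in replicates 1, 2 and 4. The gap of replicate 3 to its neighbour was 0.852 of the range, above Dixon's critical value for 4 samples. It was 1 of 24 groups of 4 values examined, where chance alone marks about 1 in 20. The second Csf1r probe had 9.60 in that liver, between 9.27 and 9.70 in the others, and the dimmest had 9.42, between 9.12 and 9.60, so neither stood apart there.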

How the results depend on the processing

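No member passed in any alternative other than separate channels with a replicate block (the array as a random block), where 2 members passed, C1qa (0.42) and C1qb (0.37), along with 891 genes over all genes, against 0 in the reported fit. With no replicate block 0 passed. The number of genes past the threshold was also 9628 with median centring and no loess, and 0 to 8764 with an array left out, the 8764 without replicate 2. Signs turned for Clec4f (-0.0068) and Vsig4 (-0.082) without loess, for Csf1r with the mean over its probes (0.064), for Marco with an array left out (-0.083 to 0.88, below 0 without replicate 2) and for Vsig4 likewise (-0.034 to 0.16, below 0 without replicate 4). The cause was not tested. The members' median kept its sign in every alternative run, from 0.084 without loess to 0.41 without replicate 1, and was 0.18 without Marco, an alternative chosen after seeing the data. Both 4 arrays and 1 dye orientation limit what these ratios can resolve.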
